A study of Atriplex lentiformis with 9 samples.

Results

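Roots of quailbush (Atriplex lentiformis), a salt-tolerant desert shrub planted to stabilise mine waste, were compared between tailings mixed with 20% compost (TC20) and tailings mixed with 10% compost (TC10) after 11 weeks of growth. The TC20 libraries came from plants 3, 5 and 9 and the TC10 libraries from plants 2 and 4, so the comparison rests on 5 of the 8 libraries with data of their own. Every plant of both groups grew in mine tailings, no plant without tailings or without compost is among the samples, and the labels name separate plants. The file titled TC10 plant 5 was left out, because its 4995 values are those of TC15 plant 6. The 3 libraries of plants grown with 15% compost (TC15) entered the shared estimate of the spread between plants and the filter that decided which entries were tested.

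Compost worked into tailings is used to supply nutrients and organic matter and to bind metals, so a larger share of compost can change the metal, salt and nutrient supply of a root at the same time. Plant roots take up zinc through ZIP transporters and move it into vacuoles or the shoot through other metal transporters. Quailbush is a halophyte, a plant that tolerates salt, and it stores part of that salt in its leaves.

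Values are read counts that the authors divided by 1 factor per library, here called normalised reads. Each stands for the quailbush transcripts matched to 1 Arabidopsis protein, so every role given here is that of the Arabidopsis protein, and close paralogs are uncertain. A normalised read was worth about 1 read, and the 5 libraries held between 3761983 (TC20 plant 3) and 4752637 (TC10 plant 2) recovered reads. Of 5164 entries listed in the 8 libraries, the 4801 that reached 10 in 2 or more of the 8 were tested (4744 reached it in 2 or more of the 5 TC20 and TC10 libraries). Differences are log2(value + 1) in TC20 minus TC10. Neither a genome nor transcript sequences were used here, so no position or sequence is given.

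The tissue label was set against a few marker entries. SKOR, a potassium channel that loads the root xylem, had 508, 527 and 282 normalised reads in TC20 and 334 and 518 in TC10. SHR, a transcription factor that patterns the root, had 186, 265 and 259 in TC20, against 59.1 and 278 in TC10. PHT11 and SCR, the other root markers, had 4.34 to 14.2 in TC20 and 2.86 to 15.4 in TC10, too few to be tested. The 4 green-tissue markers summed to 55.7, 50.7 and 32.6 in TC20 and to 178 and 56.8 in TC10, with LHCA5 at 0 in all of them but TC10 plant 2. The 4 root markers summed to 716, 803 and 555 in TC20 and to 402 and 819 in TC10. TC10 plant 2 was thus the lowest library in the sum of root markers and the highest in the sum of green-tissue markers. It was the lowest in SHR and PHT11, while SKOR (282) and SCR (4.34) were lowest in TC20 plant 9. Of its green-tissue sum, 120.1 came from the entry CB4B, which had 23.9 to 35.8 in TC20 and 24.1 in TC10 plant 4. LHCA6 (40) and PSAK (14.3) were also highest in TC10 plant 2.

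TC20 roots held less zinc than TC10 roots in every plant measured. Root zinc was 215, 277 and 174 ug/g in TC20 plants 3, 5 and 9, against 491, 637 and 1051 ug/g in TC10 plants 2, 4 and 5. Root arsenic was 65, 105 and 107 ug/g in TC20 and 129, 171 and 458 ug/g in TC10. Neither metal overlapped between the groups, and the exact two-sided permutation p was 0.1 for each, the smallest that 3 plants against 3 allow (0.28 after adjustment over 7 measurements). Root lead was 31, 59 and 38 ug/g in TC20 and 70, 52 and 224 ug/g in TC10, which overlap.

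TC20 plants were 82, 91 and 57 cm tall and TC10 plants 58, 51 and 56 cm, so the TC20 mean was higher but plant 9 of TC20 lay within the TC10 range. The longest branch was 15, 34 and 36 cm in TC20 and 6, 21 and 7 cm in TC10. Both measures gave an exact permutation p of 0.2. The stress score, whose scale is not explained, was 2, 3 and 2 in TC20 and 2 in each TC10 plant. TC10 plant 5, whose zinc, arsenic and lead were the highest of the 6 plants, has no expression values here.

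**Figure D1:**
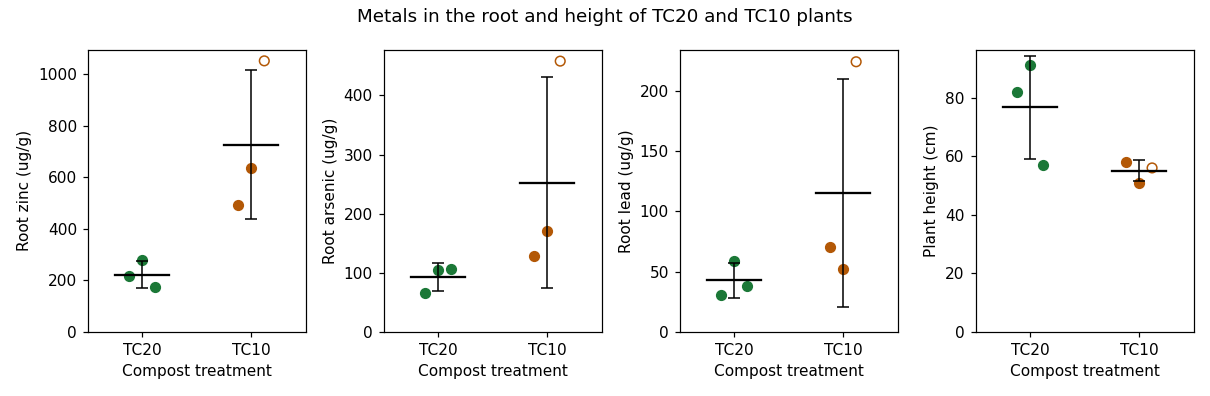
Root zinc, arsenic and lead (ug/g) and plant height (cm) in the 3 TC20 and 3 TC10 plants. Points are plants, the open circle is TC10 plant 5, which has no expression values, and the line and bars are the mean and SD of 3 plants. Zinc of TC20 (174 to 277 ug/g) lay below that of TC10 (491 to 1051 ug/g).

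No entry passed the adjusted threshold of 0.05 with limma in TC20 against TC10. Of 4801 entries, 206 (4.29%) had an unadjusted p under 0.05, of which 89 (1.85%) were higher and 117 (2.44%) lower in TC20. On the recovered reads, edgeR called 0, with 223 (4.64%) at an unadjusted p under 0.05. DESeq2 called 14 of the 4786 entries to which it gave an adjusted p (0.293%), 5 higher (0.104%) and 9 lower (0.188%) in TC20, with 321 (6.71%) unadjusted. TC20 and TC10 values did not overlap in 890 entries (18.5%), higher in TC20 in 447 (9.31%) and lower in 443 (9.23%). With 3 libraries against 2 only 10 allocations exist, so groups that do not overlap are common without any treatment difference. With a mean of at least 50 and a 2-fold difference as well, 39 entries (0.812%) were higher and 49 (1.02%) lower. The entries named below are described by their values, and none is a call of limma.

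Libraries of the same treatment were about as far from each other as libraries of different treatments. Spearman correlations over the tested entries were 0.930 to 0.968 among the TC20 libraries, 0.943 between the TC10 libraries and 0.926 to 0.976 between TC20 and TC10. TC20 plant 9 and TC10 plant 2 stood apart. Their sums of normalised reads were also the largest, 4142603 and 4528493, against 3767409 to 3813522 in the other TC20 and TC10 libraries. The top 100 entries held 24.55% of the sum in TC10 plant 2, against 17.97% to 19.58% in the other TC20 and TC10 libraries. What part this had in the counts that follow was not tested. Of 4168 entries with a mean of at least 50, TC20 plant 9 was over 2-fold above each of the other 4 libraries in 114 and TC10 plant 2 in 124, against 4 to 22 for each of the others. Of the 117 entries lower in TC20, TC10 plant 2 exceeded TC10 plant 4 in 90 (76.9%, against 49.5% of all entries tested). Of the 89 higher in TC20 it did so in only 24 (27%), so TC10 plant 2 was mostly the further from TC20 in both directions. Without TC10 plant 2, the 206 entries under unadjusted 0.05 became 95, and without TC10 plant 4 they became 543. Either way TC10 keeps 1 library, which is assumed to vary like TC20 and TC15 roots do.

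**Figure D2:**
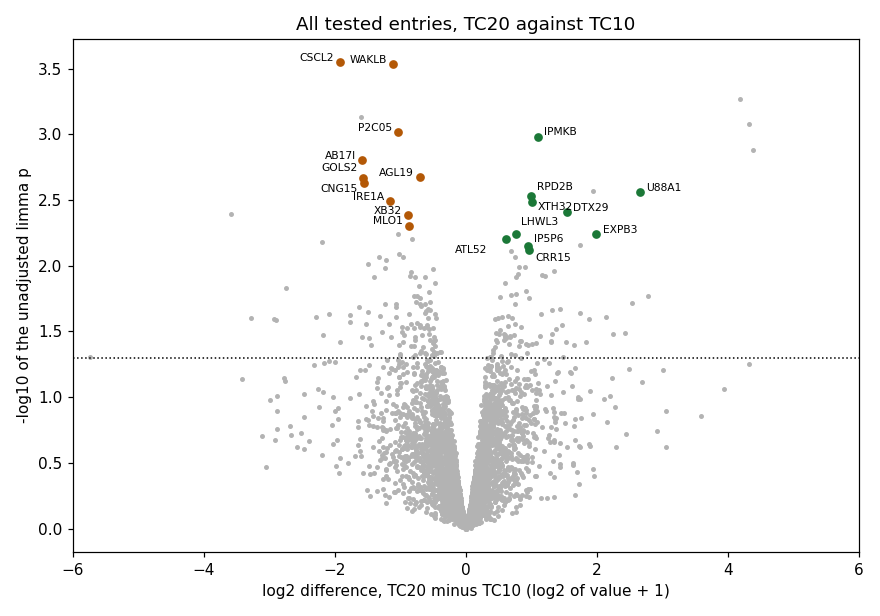
Difference of every tested entry (TC20 minus TC10, log2) against the unadjusted limma p on a -log10 scale. The dotted line marks 0.05, and the 10 higher (green) and 10 lower (orange) entries with the smallest p among those with a mean of at least 50 and no overlap are named. None passes after adjustment, and unnamed points above them have lower means, locus-code names or overlapping groups.

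Among entries with a mean of at least 50, separate groups and no locus code as name, the 10 lower in TC20 with the smallest p are described first. CSCL2, a relative of the calcium-permeable channels that open under osmotic stress, had 508, 775 and 865 normalised reads in TC20 and 2428 and 2908 in TC10. Every TC20 root was below every TC10 root, as the choice of entries required, with a difference of log2 -1.93 (SE 0.31). WAKLB, a wall-associated receptor kinase-like protein, had 392, 438 and 439 in TC20, against 838 and 989 in TC10 (log2 -1.11, SE 0.18). The adjusted p with limma was 0.7 for both. TC15 roots had 502, 404 and 727 of CSCL2 and 587, 526 and 438 of WAKLB, values near those of TC20.

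A protein phosphatase of class 2C, P2C05, was at 491, 447 and 667 in TC20 and at 1033 and 1134 in TC10 (log2 -1.04, SE 0.20, adjusted p 0.72 with limma). CNG15, a cyclic nucleotide-gated calcium channel, had 223, 203 and 161 in TC20 and 773 and 424 in TC10 (log2 -1.56, SE 0.35). Its relative CNG14, which works in root hairs, had 334, 515 and 642 in TC20 and 1319 and 979.7 in TC10. In both channels TC10 plant 2 was the highest library.

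GOLS2, a galactinol synthase of the pathway to raffinose sugars that accumulate under drought, had 88.1, 76.1 and 41.3 in TC20 and 216 and 175 in TC10 (log2 -1.56, SE 0.35). Values of 133, 124 and 154 in TC15 lay between both groups. IRE1A, the sensor of unfolded proteins in the endoplasmic reticulum, had 1638, 1849.9 and 1923 in TC20, against 5201 and 3086 in TC10 (log2 -1.15, SE 0.27). The 3 TC20 roots were close together, while the TC10 roots differed from each other.

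The ABC transporter AB17I had 245, 220.3 and 159.6 normalised reads in TC20 and 453 and 839 in TC10 (log2 -1.58, SE 0.33). AGL19, a MADS-box transcription factor, had 519, 491 and 438 in TC20 and 758 and 810.2 in TC10 (log2 -0.70, SE 0.15), a small difference with little spread within each group. XB32, a ubiquitin ligase, averaged 692 ± 48.2 in TC20 and 1317 ± 449.8 in TC10 (SD, n = 3 and 2). MLO1, a membrane protein of the mildew-resistance locus O family, averaged 1114 ± 302 in TC20 and 2004 ± 287 in TC10. The adjusted p with limma was 0.84 for AB17I and 0.92 for AGL19, GOLS2, CNG15, IRE1A, XB32 and MLO1.

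Under the same limits on mean and name, the entry higher in TC20 with the smallest p was IPMKB, an inositol polyphosphate multikinase that adds phosphates to inositol phosphates. It had 635, 573 and 787 normalised reads in TC20 and 275 and 344 in TC10 (log2 1.10, SE 0.21, adjusted p 0.72 with limma). TC15 roots had 346, 394 and 290.2, near the TC10 values. Entries of lower mean, Y1112 and DRL30, had a smaller p than IPMKB and are described further on. IP5P6, a phosphatase that removes a phosphate from inositol phosphates, had 199.6, 198 and 243 in TC20, against 90.5 and 134 in TC10 (log2 0.94, SE 0.26).

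A pair of these entries act on the cell wall. XTH32, an enzyme that cuts and rejoins xyloglucan, had 765, 551 and 695 in TC20 and 296 and 369 in TC10, 2.01-fold higher in TC20 in the fit (SE 0.24 on the log2 scale). EXPB3, a beta-expansin that loosens walls during growth, had 119.6, 130.3 and 116 in TC20 and 21.9 and 40.5 in TC10 (log2 1.99, SE 0.53). TC20 roots were close together in EXPB3, with means of 122 ± 7.36 in TC20 and 31.2 ± 13.1 in TC10 (SD, n = 3 and 2).

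DTX29, a transporter of the MATE family that exports organic compounds, had 331, 329 and 537 in TC20 and 133 and 131 in TC10 (log2 1.55, SE 0.38). U88A1, a UDP-glycosyltransferase, had 1049.6, 1189 and 1393 in TC20, against 101 and 355 in TC10 (log2 2.66, SE 0.61). It varied more among the TC15 roots (444, 577 and 1451) than within TC20. RPD2B, a subunit of the plant-specific RNA polymerases that serve RNA silencing, had 748, 894 and 643 in TC20 and 305 and 471 in TC10 (log2 0.99, SE 0.23).

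The remaining entries, chosen like the others for separate groups, were LHWL3, ATL52 and CRR15. LHWL3, a bHLH protein, differed by log2 0.77 (SE 0.20) and ATL52, a RING-finger protein, by log2 0.62 (SE 0.17). CRR15, a secreted protein with cysteine-rich repeats, differed by log2 0.97 (SE 0.27). LHWL3 averaged 4293 ± 839 in TC20 and 2484 ± 62.8 in TC10, ATL52 317 ± 29.4 and 206 ± 10.4, and CRR15 467 ± 93.9 and 235 ± 13.1, in the same order of treatments. Of these 10 entries, all but IPMKB had an adjusted p of 0.92 with limma.

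**Figure D3:**
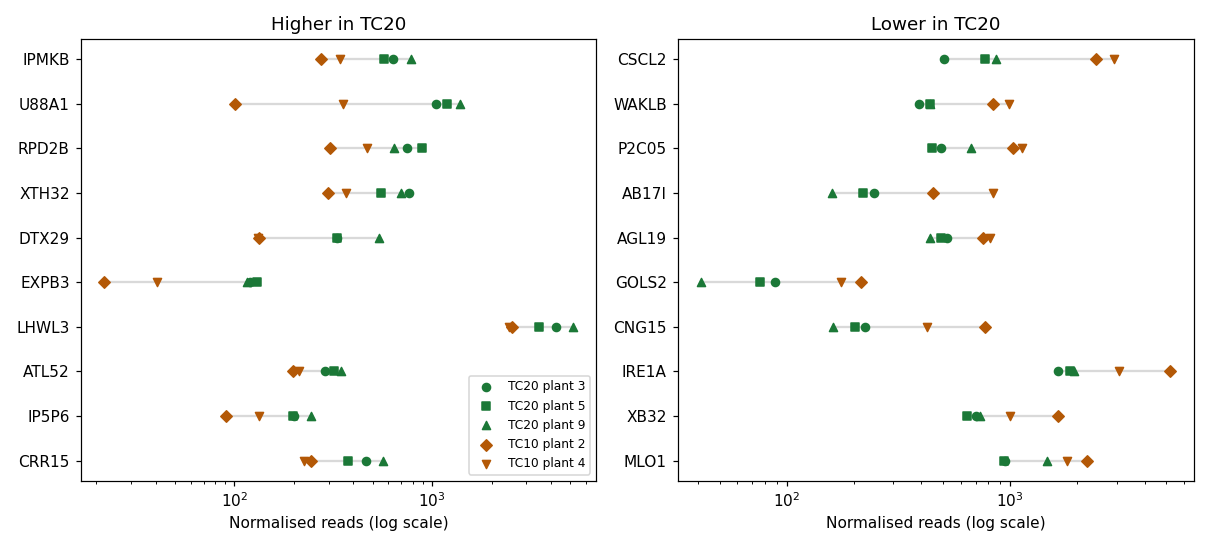
Normalised reads (log scale) of the 10 entries higher (left) and the 10 lower (right) in TC20 with the smallest unadjusted p among those with a mean of at least 50 and no overlap. Symbols are libraries, TC20 in green and TC10 in orange. The absence of overlap is part of how the entries were chosen.

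Among entries with a mean of at least 50, separate groups and no locus code as name, the 5 with the largest log2 difference in each direction were U88A1 and 9 others. Entries of lower mean had differences as large, among them SYT4 (log2 4.39, SE 0.89), DRL30 (log2 4.33, SE 0.82) and Y1112, whose TC10 values are 0. BH055, a bHLH protein, had 92.2, 213 and 1156 normalised reads in TC20 and 37.2 and 44.3 in TC10 (log2 2.78, SE 0.92). SOT6, a sulfotransferase, had 77, 92.7 and 659 in TC20 and 20 and 45.3 in TC10 (log2 2.44, SE 0.94). In both, TC20 plant 9 held most of the TC20 reads.

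PGIP1, an inhibitor of fungal polygalacturonases, had 272, 1660.2 and 699 in TC20, against 77.2 and 265 in TC10 (log2 2.24, SE 0.86). P4KB2, a phosphatidylinositol kinase, had 333, 220.3 and 329 in TC20 and 0.953 and 106 in TC10 (log2 4.33, SE 1.92), where TC10 plant 2 had 1 read. Its TC15 values of 5.6, 127 and 296 spread as widely as those of TC10.

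On the lower side, P2C53, a phosphatase of class 2C, had 19.2, 0 and 39.1 in TC20 and 740.4 and 336 in TC10 (log2 -5.74, SE 2.46). TC15 roots ranged from 0 to 258, so plants with few reads of it occurred in both TC20 and TC15. GLYM1, the serine hydroxymethyltransferase of mitochondria, had 9.12, 43.7 and 159 in TC20 and 469.7 and 344 in TC10 (log2 -3.27, SE 1.18). KAT1, a potassium channel, had 50.7, 22.7 and 5.43 in TC20 and 236 and 92.5 in TC10 (log2 -2.90, SE 1.05). SFH3, a phosphatidylinositol transfer protein, was low in TC20 plants 3 and 5 (95.2 and 67.3) and higher in plant 9 (661), against 997 and 1206 in TC10 (log2 -2.75, SE 0.88). The entry CAP6 averaged 29.7 ± 28.4 in TC20 and 176 ± 54.2 in TC10. All 9 entries of this group had an adjusted p of 0.92 with limma.

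The 14 entries that DESeq2 called included 10 of the 20 named above for a small p. They were CSCL2 and WAKLB (DESeq2 adjusted p 8.2e-05 each), P2C05, AB17I and IPMKB (0.011 each), CNG15 and AGL19 (0.024 each), GOLS2 (0.026), IRE1A (0.036) and U88A1 (0.042). BH055 (0.026), described above for its large difference, was called too. SYT4, a synaptotagmin of membrane contact and traffic, had 40, 28 and 84 reads in TC20 and 4 and 0 in TC10 (DESeq2 adjusted p 0.02). Y2168 and Y1112 carry only a locus code. Y2168 had 848, 781 and 838 normalised reads in TC20 and 3666 and 1707 in TC10 (DESeq2 adjusted p 0.00078). Y1112 had 34, 14 and 11 reads in TC20 and 0 in both TC10 libraries (DESeq2 adjusted p 0.024), and passed the filter through TC20 and TC15 roots. With 3 counts over both TC10 libraries as the floor, its pooled TC20 value of 59 reads was at least 13.5-fold higher. That bound covers counting alone and leaves out the spread between plants.

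Leaving out the TC20 and TC10 libraries 1 at a time, CSCL2, WAKLB and Y2168 remained called by DESeq2 in all 5 fits. AB17I, IPMKB, BH055 and GOLS2 were called in 3 of the 5, AGL19 in 0 and the other 6 in 1 or 2. Without TC10 plant 2, DESeq2 called 8 entries, 4 of them among the 14. Without TC10 plant 4 it called 154 entries with 9 of the 14, without TC20 plant 3 it called 8 with 6 of the 14, and without TC20 plant 9 it called 27 with 8 of the 14. With the 5 TC20 and TC10 libraries alone it called 15, with 9 of the 14. With limma, edgeR and the other alternatives, the lowest adjusted p of any of the 14 was 0.043, for Y2168 without TC10 plant 4.

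Genes of known function were then read as 22 lists, each by its counts and its median beside those of all tested entries, of which 2412 of 4801 (50.2%) had a positive difference, with a median of 0.0015. No list member passed with limma, so the counts below are of unadjusted p under 0.05 (1.85% higher and 2.44% lower over all entries) and of groups that do not overlap (9.31% and 9.23%). In roots taken whole, fewer cells of a type and less RNA per cell cannot be told apart.

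**Figure D4:**
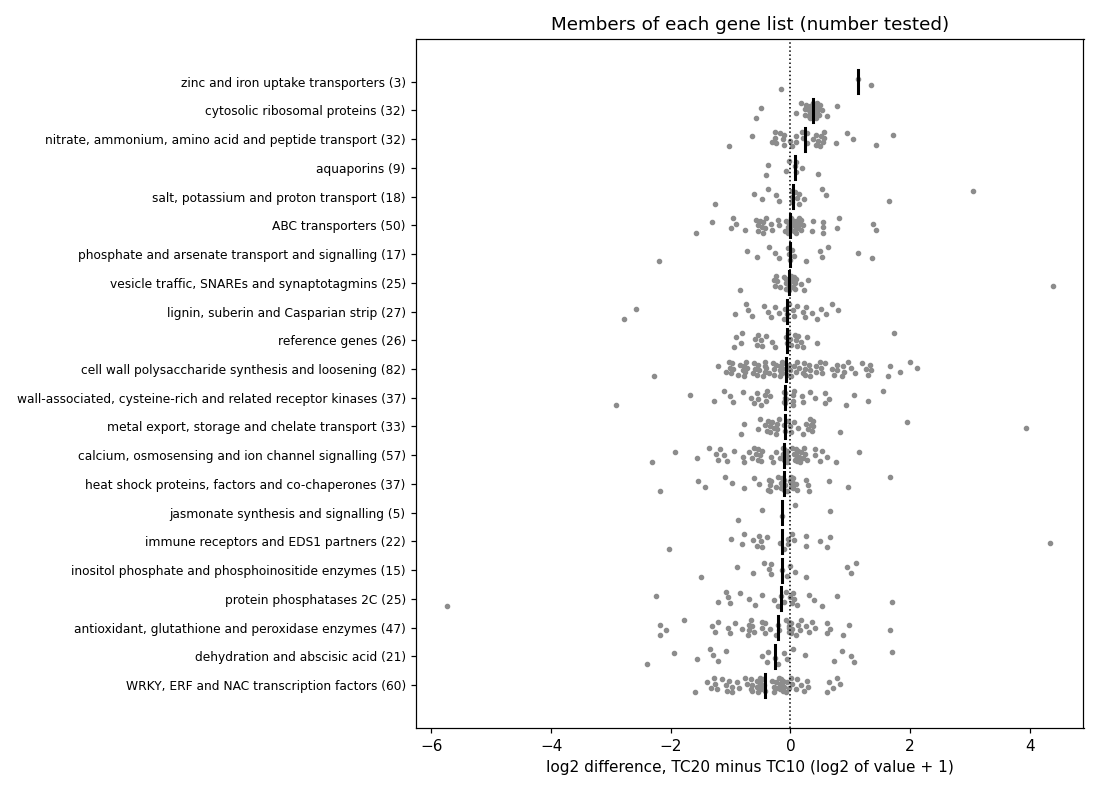
Difference (TC20 minus TC10, log2) of each tested member of the 22 gene lists, ordered by the list median (black bar). Points are entries, and the number tested is in parentheses. The medians run from -0.43 for the WRKY, ERF and NAC factors to 1.14 for the 3 zinc and iron uptake transporters.

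The zinc and iron uptake list held 3 tested entries, of which ZIP4 and ZIP1 were higher in TC20 with an unadjusted p under 0.05. ZIP4, a zinc uptake transporter induced in Arabidopsis when zinc is short, had 198, 443 and 191 normalised reads in TC20 and 92.4 and 108 in TC10 (log2 1.35, SE 0.40). ZIP1, also a zinc transporter, had 213, 279 and 264 in TC20 and 79.1 and 162 in TC10 (log2 1.14, SE 0.44). Both were higher in each of the 3 TC20 roots than in either TC10 root. The TC20 roots held 174 to 277 ug/g of zinc and the TC10 roots 491 and 637 ug/g. TC15 roots, which held 373, 565 and 1075 ug/g of zinc, had 104, 103 and 67.9 of ZIP4 and 115, 295 and 206 of ZIP1. Whether root zinc had a part in these differences was not tested. The adjusted p was 0.92 for ZIP4 and ZIP1 with limma, and 0.22 and 0.67 with DESeq2. The list median of 1.14 was 0.63 without TC10 plant 2. ZTP50, a putative zinc transporter, had 604, 583 and 684 in TC20 and 697 and 689 in TC10 (log2 -0.15, SE 0.18). Its groups did not overlap either, but it was the lower in TC20, by a small margin.

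Of 33 tested genes of metal export, storage and chelate transport, 0 had an unadjusted p under 0.05 (14 positive, 19 negative, median log2 -0.09, which ran from -0.15 without TC20 plant 5 to 0.04 without TC20 plant 9). The most abundant were ZIFL1, a zinc-induced facilitator-like carrier, with 4265, 4112 and 2647 in TC20 and 4339 and 4579 in TC10, and OPT4, an oligopeptide transporter, with 1319, 1719 and 946 in TC20 and 959 and 1286 in TC10. YSL7, a transporter of the yellow stripe family of metal chelate carriers, had the highest positive difference (log2 3.94) because TC10 plant 4 is at 0. Its other values, 239, 203 and 365 in TC20 and 291 in TC10 plant 2, overlap, and it was singled out after its values were seen.

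In the list of phosphate and arsenate transport and signalling, 17 members were tested (8 positive, 9 negative, median log2 -0.01, from -0.12 without TC10 plant 2 to 0.19 without TC10 plant 4), and 2 purple acid phosphatases were lower in TC20 with an unadjusted p under 0.05. PPA29 had 416, 303 and 407 in TC20 and 509.8 and 592 in TC10 (log2 -0.56, SE 0.21). PPA14, of lower abundance and named after its values were seen, had 19.2, 11.4 and 8.69 in TC20 and 97.2 and 37.6 in TC10 (log2 -2.20, SE 0.60). The abundant PPA27 had 6682, 6294 and 30895 in TC20 and 4483 and 4047 in TC10 (log2 1.36, SE 0.66), where the TC20 mean rested mainly on plant 9. SPXM3, a membrane protein with the SPX domain that senses phosphate status, had 2255, 6708 and 1409 in TC20 and 1724 and 928 in TC10, which overlap. Both phosphatases lower in TC20 had an adjusted p of 0.92 with limma.

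Of 9 aquaporins, 0 had an unadjusted p under 0.05 (5 positive, median log2 0.07, which ran from -0.21 without TC20 plant 9 to 0.16 without TC20 plant 5). PIP14, a plasma membrane aquaporin, had 6078, 5615 and 5386 in TC20 and 4434 and 6425 in TC10, and NIP12, of a subfamily that also carries arsenite, had 3963, 4793 and 5145 in TC20 and 2564 and 4352 in TC10. Among 18 tested salt, potassium and proton transporters (12 positive, 6 negative, median log2 0.05, -0.07 without TC10 plant 2 and -0.06 without TC10 plant 4), NHX2 alone had an unadjusted p under 0.05. NHX2, which exchanges sodium or potassium for protons at the vacuole, had 1512, 1001 and 1261 in TC20 and 1755 and 1707 in TC10 (log2 -0.48, SE 0.20, adjusted p 0.92 with limma). PMA11, a plasma membrane proton pump, had 2626, 2569 and 2728 in TC20 and 2129.6 and 2401 in TC10.

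Dehydration and abscisic acid genes had a median log2 difference of -0.27, with 14 of 21 tested members negative. The groups did not overlap in 5 members lower in TC20 (23.8%) and 2 higher (9.52%), and GOLS2 was the 1 member with an unadjusted p under 0.05. RD22, a drought-responsive wall protein, had 12335, 19480.4 and 11562 in TC20 and 12291 and 18626 in TC10. ABAH1, which degrades abscisic acid, had 1077, 3537 and 1996 in TC20, against 12118 in TC10 plant 2 and 1935 in TC10 plant 4. Its negative difference (log2 -1.30, SE 0.77) came to 0.02 without TC10 plant 2. The list median was -0.22 without TC10 plant 2, -0.70 without TC10 plant 4 and -0.15 without TC20 plant 9.

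Of 57 tested calcium, osmosensing and ion channel genes, 36 were negative (median log2 -0.10), with 4 lower and 1 higher at an unadjusted p under 0.05. Without TC10 plant 2 the signs were 28 positive and 29 negative, with a median of -0.03. CSCL2, CNG15 and CNG14 were among the lower ones. GLR32, a glutamate receptor-like channel, had 648, 1118 and 1971 in TC20 and 498 and 513 in TC10 (log2 1.15, SE 0.41). The other 6 tested relatives of CSCL2 had log2 differences between -0.61 and 0.25. CIPK6, a kinase activated by calcium sensors, had 8289, 14841 and 8421 in TC20 and 13419 and 8355 in TC10, and ACA2, a calcium pump, had 3573, 2124 and 5581 in TC20, against 18509.8 and 3554 in TC10.

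Receptor kinases of the wall-associated, cysteine-rich and lectin groups included 37 tested entries (15 positive, 22 negative, median log2 -0.09, which was -0.19 without TC10 plant 2 and -0.25 without TC20 plant 9). The groups did not overlap in 7 lower (18.9%) and 3 higher in TC20 (8.11%). After WAKLB, the lower entries at an unadjusted p under 0.05 were FERON and HERK, both of the family that senses the state of the growing wall. FERON, or FERONIA, had 3147, 3345 and 4117 in TC20 and 5481 and 4804 in TC10 (log2 -0.55, SE 0.18), and HERK had 932, 1086 and 909 in TC20 and 1601 and 1177 in TC10 (log2 -0.50, SE 0.19). LRKS2, a lectin receptor kinase, had 2233, 1924 and 1180.2 in TC20 and 2429.7 and 2618 in TC10. The adjusted p of these 3 was 0.92 with limma.

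Protein phosphatases of class 2C had 16 of 25 tested members negative (median log2 -0.16) and 4 without overlap, all lower in TC20 (16%). The median was -0.01 without TC10 plant 2, -0.27 without TC20 plant 9 and -0.53 without TC10 plant 4. Beside P2C05 and P2C53, the abundant P2C25 had 5217, 3052 and 3979 in TC20 and 13056 and 3176 in TC10, where TC10 plant 4 lay within the TC20 range. P2C10 had 1498, 1982 and 2299.6 in TC20 and 3263 and 2151 in TC10.

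Of 15 tested inositol phosphate and phosphoinositide enzymes, 5 were positive and 10 negative (median log2 -0.14). The median was -0.01 without TC10 plant 2, -0.08 without TC20 plant 5 and -0.26 without TC10 plant 4, and the signs were 7 and 8 without TC10 plant 4 or TC20 plant 9. IPMKB and IP5P6 were the members higher in TC20 at an unadjusted p under 0.05. IP5PA, another phosphatase of inositol phosphates, was lower, with 110.4, 161 and 130.3 in TC20 and 235 and 177 in TC10 (log2 -0.62, SE 0.26, adjusted p 0.92 with limma). PLCD2, a phospholipase C, had 1354, 1302 and 2368 in TC20 and 3239.6 and 1485 in TC10, and PI5K8, a phosphoinositide kinase, had 1416, 1714 and 1205 in TC20 and 1036 and 1787 in TC10.

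WRKY, ERF and NAC transcription factors, families with many stress-responsive members, had 47 of 60 tested members negative and a median log2 difference of -0.43. WRKY and NAC factors each had 19 of 22 negative, and ERF factors 9 of 16. Only WRK48 had an unadjusted p under 0.05, with 426, 344 and 623 in TC20 and 1323 and 677 in TC10 (log2 -1.07, SE 0.37, adjusted p 0.92 with limma). Without TC10 plant 2 the list median was -0.09, with 35 of 60 members negative. By family, WRKY factors then had 16 of 22 negative (median -0.13), NAC factors 14 of 22 (median -0.18) and ERF factors 5 of 16 (median 0.24). The medians without TC20 plants 3 and 5 were -0.28 and -0.32.

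The most abundant members were WRK40 and WRK33, both induced by pathogen signals in Arabidopsis. WRK40 had 1904, 3642 and 6579.6 in TC20, against 15424 in TC10 plant 2 and 2272 in TC10 plant 4. WRK33 had 3234, 3382 and 5511 in TC20, against 13571 and 2754 in TC10. In both, TC10 plant 4 was at or below the TC20 level, and TC10 plant 2 was far above all others. NHL3, a defence-related membrane protein singled out after its values were seen, followed the same pattern, with 11813, 7743 and 14852 in TC20 and 59104 and 9169.9 in TC10. TC10 plant 2 also had the lowest root marker sum and the highest green-tissue marker sum of the 5 libraries (402 and 178), and the part of that in these differences was not tested.

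**Figure D5:**
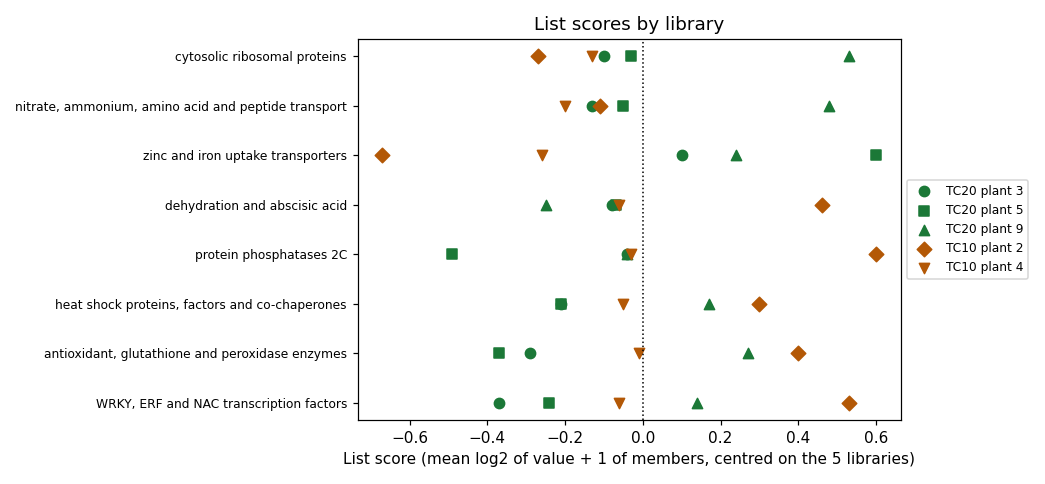
List score (mean log2 of value + 1 over tested members, centred on the 5 libraries) of 8 lists in each TC20 (green) and TC10 (orange) library. TC10 plant 2 is the highest library for the dehydration, phosphatase 2C, heat shock, antioxidant and transcription factor lists (0.30 to 0.60), and TC20 plant 9 for ribosomal proteins (0.53) and nitrogen transport (0.48).

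Heat shock proteins, factors and co-chaperones had 24 of 37 tested members negative (median log2 -0.12) and 0 at an unadjusted p under 0.05. Without TC10 plant 2 it was 19 of 37 with a median of -0.02, and the median was -0.04 without TC20 plant 5, -0.22 without TC10 plant 4 and -0.30 without TC20 plant 9. HS901, a cytosolic Hsp90, had 2146, 1649.7 and 7856 in TC20 and 12044 and 2951 in TC10. HSP7P, of the Hsp70 family, had 4985, 4447 and 6239.8 in TC20 and 5788 and 4612 in TC10, with a difference of 0.00 (SE 0.23). Immune receptors and their partners had 8 of 22 tested members positive (median log2 -0.14). Without TC10 plant 2 the signs were 11 and 11 with a median of -0.02, and the median was -0.03 without TC20 plant 5, -0.23 without TC20 plant 3, -0.25 without TC20 plant 9 and -0.34 without TC10 plant 4. The 1 member at an unadjusted p under 0.05, DRL30, a probable disease resistance protein named after its values were seen, had 29.4, 12.2 and 54.3 in TC20 and 0.953 and 0 in TC10. DRL27 had 1254, 1865 and 2195 in TC20 and 1696 and 1704 in TC10, and R13L1 had 2079, 1585 and 1279 in TC20 and 2008 and 1366 in TC10.

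Antioxidant, glutathione and peroxidase enzymes had 30 of 47 tested members negative (median log2 -0.21), with 6 lower and 0 higher at an unadjusted p under 0.05. The groups did not overlap in 9 members, all lower in TC20 (19.1%). PER55, a secreted peroxidase, had 327, 268 and 244 in TC20 and 607 and 687 in TC10 (log2 -1.21, SE 0.35). PER25, of the same family, had 138, 69.1 and 249.7 in TC20 and 398 and 529.8 in TC10 (log2 -1.77, SE 0.63). GPX4, a glutathione peroxidase, had 262, 316 and 413 in TC20 and 579 and 478 in TC10 (log2 -0.69, SE 0.23). In these 3 both TC10 roots were high, with an adjusted p of 0.92 with limma.

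AOX1A, the alternative oxidase of mitochondria, was also among the 6 and is named after its values were seen. Its groups overlapped, with 129.7, 168 and 333 in TC20 and 2102 and 325 in TC10. The most abundant members overlapped as well. DHAR2, which recycles ascorbate, had 9369, 6144 and 14182 in TC20 and 10062 and 6847 in TC10, and PER72 had 4930.0, 3654 and 13397 in TC20 and 2935 and 5687 in TC10. The list median was -0.07 without TC10 plant 2, -0.06 without TC20 plant 3, -0.11 without TC20 plant 5 and -0.34 without TC10 plant 4.

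Cell wall synthesis and loosening genes had 38 of 82 tested members positive (median log2 -0.07), with 5 higher and 2 lower at an unadjusted p under 0.05. The groups did not overlap in 12 members higher in TC20 (14.6%) and 5 lower (6.1%). The median was 0.12 without TC20 plant 5 (45 positive, 37 negative), 0.09 without TC10 plant 4 and -0.12 without TC20 plant 9. EXPB3, XTH32 and 3 further entries were the higher ones. Of these 3, named after their values were seen, EXPA4, an alpha-expansin, had 3108, 1798 and 3315 in TC20 and 673 and 1705 in TC10 (log2 1.30). GUN17, an endoglucanase, had 634, 289 and 1009 in TC20 and 100 and 251 in TC10 (log2 1.84), and BXL7, a beta-xylosidase, 499, 432 and 518 in TC20 and 317 and 326 in TC10 (log2 0.58).

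On the lower side of the wall list, CESA3, a cellulose synthase of the primary wall, had 5275, 3300.4 and 4582 in TC20 and 8315 and 6583 in TC10 (log2 -0.78, SE 0.24). COBL7, of the COBRA family of cell surface proteins, had 577, 257 and 843 in TC20 and 5469 and 1094 in TC10 (log2 -2.29, SE 0.82), so its TC10 mean rested mainly on plant 2. The cellulose synthase and COBL7 were thus lower in TC20, and XTH32 and EXPB3 higher, each with an adjusted p of 0.92 with limma.

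The abundant xyloglucan enzymes XTH23 and XTH22 had 14996, 14384 and 23078, and 3241, 5557 and 11856, in TC20, against 58799 and 16789, and 22472 and 7087, in TC10. Both overlapped, with TC10 plant 2 as the highest library. Lignin, suberin and Casparian strip genes had 12 of 27 tested members positive (median log2 -0.05, 0.03 without TC20 plant 5 and -0.17 without TC20 plant 9), with 0 at an unadjusted p under 0.05. CCR1, an enzyme of lignin synthesis, had 10857, 14253 and 9102 in TC20 and 11422 and 8183 in TC10. LAC4, a laccase that polymerises lignin, had 5781, 2973 and 5059.6 in TC20 and 8995 and 6146 in TC10 (log2 -0.75, SE 0.43).

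Nitrate, ammonium, amino acid and peptide transport had 21 of 32 tested members positive (median log2 0.24). The groups did not overlap in 6 members higher in TC20 (18.8%) and 1 lower (3.12%). PTR32, of the nitrate and peptide transporter family, was the 1 member at an unadjusted p under 0.05, with 794, 732 and 754 in TC20 and 382 and 524 in TC10 (log2 0.76, SE 0.25, adjusted p 0.92 with limma). AAP2, an amino acid permease, had 3067, 2795 and 8253 in TC20 and 3723 and 4013 in TC10, and PTR6 had 3851, 2547 and 6233 in TC20 and 5181 and 3536 in TC10. The list median was 0.12 without TC20 plant 9 and 0.37 without TC20 plant 5.

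Cytosolic ribosomal proteins had 30 of 32 tested members positive, with a median log2 difference of 0.38. In 22 of them (68.8%) each TC20 library was above each TC10 library, against 9.31% of all entries tested, and 1 had an unadjusted p under 0.05. That member, RL123, had 474, 564 and 807 in TC20 and 425 and 366 in TC10 (log2 0.60, SE 0.23, adjusted p 0.92 with limma). RL7A2 had 5103, 4658 and 6918 in TC20 and 3515 and 4452 in TC10, and RS43 had 3881, 4205 and 5291 in TC20 and 2884 and 3752 in TC10. In all 3 TC20 plant 9 was the highest library. The list score was -0.10, -0.03 and 0.53 in TC20 and -0.27 and -0.13 in TC10, so TC20 plants 3 and 5 lay only slightly above TC10. Without TC20 plant 9 the median was 0.18, with 28 of 32 members positive. Members of the list vary together and are not separate evidence.

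Jasmonate genes had 5 tested members (2 positive, median log2 -0.14) and 0 at an unadjusted p under 0.05. The median was 1.34 without TC10 plant 2, 0.66 without TC20 plant 3, -0.06 without TC20 plant 5 and -0.88 without TC20 plant 9. AOC4, an enzyme of jasmonate synthesis, had 481, 353 and 6829 in TC20 and 1204 and 368 in TC10, so 1 plant of each treatment was high. COI1, the jasmonate receptor, had 2465, 3177 and 2242 in TC20 and 2262 and 2672 in TC10.

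Vesicle traffic genes had 11 of 25 tested members positive (median log2 -0.02, from -0.09 without TC20 plant 9 to 0.01 without TC20 plant 3), with SYT4 higher and VAP21 lower at an unadjusted p under 0.05. VAP21, a protein of membrane contact sites, had 163, 139 and 143 in TC20 and 301 and 238 in TC10 (log2 -0.85, SE 0.26). VA721, a secretory SNARE, had 5815, 5886 and 4611 in TC20 and 5532 and 4786 in TC10. SYT5 had 2117, 1941 and 2507 in TC20 and 2434 and 2168 in TC10, unlike SYT4.

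ABC transporters had 25 of 50 tested members positive (median log2 -0.01, from -0.11 without TC20 plant 3 to 0.05 without TC10 plant 4), with 2 higher and 3 lower at an unadjusted p under 0.05. AB8B had 2757, 4844 and 3174 in TC20 and 1992 and 1977 in TC10 (log2 0.81, SE 0.24). AB7A had 349.5, 333 and 329 in TC20 and 483 and 521 in TC10 (log2 -0.57, SE 0.21), and AB5A 21.3, 35 and 44.5 in TC20 and 94.3 and 70.3 in TC10. The abundant AB15B had 3710.2, 6121 and 1301 in TC20 and 2396 and 4222 in TC10. AB1B, an auxin exporter, had 4131, 2555 and 2586 in TC20 and 2497 and 3162 in TC10.

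Tubulin, ubiquitin and ubiquitin-conjugating genes, taken as reference genes, had 10 of 26 tested members positive (median log2 -0.07, -0.11 without TC10 plant 4) and 0 at an unadjusted p under 0.05. The groups did not overlap in 4 members lower in TC20 (15.4%) and 2 higher (7.69%), with UBQ11 among the higher. UBQ11, the most abundant entry in all of the 5 libraries but TC10 plant 2, had 35928, 48439 and 35076 in TC20 and 27476 and 30657 in TC10 (log2 0.44, SE 0.33). UBC7 had 3839, 4122 and 6302 in TC20 and 11330.2 and 3742 in TC10.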

How the data were processed

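RNA was extracted with an RNeasy plant kit and sequenced from TruSeq stranded libraries, per the labels' protocols. The submitters' processing notes name FastQC, Trim Galore, kallisto and DESeq2, with versions, the transcript reference and the matching to Arabidopsis proteins not given in the sources used here, in any header or label. The deposited files hold 1 normalised signal value per entry. All listed values were whole multiples of 1 library-specific value within 0.001 of a read, so reads could be recovered. Entries missing from a file were taken as 0.

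The main test was limma 3.58.1 (R 4.3.3) fitted to log2(value + 1) of 8 libraries with a mean-variance trend in its eBayes step, contrast TC20 minus TC10, with Benjamini-Hochberg adjustment over 4801 entries. This scale understates the change of low entries. On the recovered reads, edgeR 4.0.16, DESeq2 1.42.0 and limma-voom were alternatives. limma, edgeR and DESeq2 were also run on simulated counts. Those counts had the same spread for every entry and no outlying library, so they cannot decide between the tools' differing numbers of calls. Counting error is small for entries with many reads, but not for those with few, such as SYT4 and Y1112. It is the only error that read numbers show, since reads carry no molecular identifiers.

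Entries were named by rule: at a mean of at least 50 in the 5 libraries, without overlap and without a locus-code name, the 10 per direction with the smallest p and the 5 with the largest difference; entries called by any tool; and per list the members under unadjusted 0.05 (up to 4) and the 2 most abundant. Lists were matched by name pattern, and matches of uncertain family were dropped. The rule and lists were chosen with earlier results of these data known, and entries outside the rule are marked. Plant measurements were compared by exact permutation (Python 3.11.15).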

Additional observations from a re-analysis of the deposited data

How the results depend on the processing

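No paired analysis was made, because the labels name separate plants and give no pairing between treatments. The count of entries past the adjusted threshold (0) was unchanged under other pseudocounts (0.1 and 5), filters (none, or a minimum of 50), rescalings (TMM, upper quartile), edgeR, limma-voom and the 5 libraries alone. It was 14 with DESeq2, and 0 to 2 when single libraries were left out. The 2, Y2168 and Y4193, came without TC10 plant 4, where limma has only TC10 plant 2 for that treatment. At an unadjusted p under 0.05, the 89 entries higher in TC20 became 59 with the 5 libraries alone and 50 to 228 when single libraries were left out. The 117 lower ones became 191 with DESeq2 and 45 to 315 when single libraries were left out, with the extremes of both ranges without TC10 plants 2 and 4. DESeq2 calls (14) were 14 without the filter, 15 with the 5 libraries alone and 8 to 154 when single libraries were left out, in fits chosen after seeing the data. Plant differences kept their direction with the 3 and 2 sequenced plants.

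Of 94 named entries, 25 changed sign in some alternative, all of them named for their abundance and none under unadjusted 0.05. Leaving out single libraries, their log2 differences ranged for PIP14 from -0.18 to 0.36, RD22 -0.41 to 0.19, ABAH1 -2.62 to 0.02, CIPK6 -0.41 to 0.28, P2C25 -1.71 to 0.33, PLCD2 -1.01 to 0.12, PI5K8 -0.32 to 0.47, DRL27 -0.15 to 0.25, R13L1 -0.31 to 0.24, WRK40 -2.11 to 0.65, WRK33 -1.79 to 0.51, HS901 -1.99 to 0.04, HSP7P -0.16 to 0.17, DHAR2 -0.13 to 0.47, XTH23 -1.78 to 0.02, CCR1 -0.03 to 0.45, COI1 -0.06 to 0.20, AOC4 -0.69 to 1.51, AAP2 -0.40 to 0.38, PTR6 -0.45 to 0.19, VA721 -0.03 to 0.19, SYT5 -0.18 to 0.01, AB15B -0.53 to 0.58, AB1B -0.13 to 0.27 and UBC7 -1.29 to 0.31. HSP7P was also -0.01 with TMM, and AB15B 0.19 with edgeR and 0.17 with DESeq2. The cause was not tested.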
